A study of Danio rerio with 12 samples.

Results

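The main subject is genes that changed in the same direction in both dissected parts of the zebrafish embryo after a brief *dmrt2a* pulse. They were found over all 12 arrays of the series, 6 from transgenic and 6 from control embryos, in a single limma fit with the dissected region as a covariate, so that the effect of a gene is the mean of its effects in the 2 regions. The arrays fall into 4 groups of 3. Region 1 is the piece that holds the somites, and Region 2 the piece with the tailbud and the left-right organiser (LRO). Each was taken from Tg(hsp70:HA-*dmrt2a*) embryos and from wildtype control embryos. Transgenic embryos carry HA-tagged *dmrt2a* behind the *hsp70* promoter, which responds to heat in any cell type. Both genotypes were raised at 28 °C, received the same heat-shock at bud-stage (39 °C for 30 min) and were dissected from 2 h to 2 h 30 min afterwards, at about the 3- to 4-somite stage, with 100 pieces pooled per array. The replicates are biological, per the methods. All lines share a Tubingen background, and transgenic embryos came from an outcross of homozygous fish. Other differences between the transgenic stock and the wildtype fish, and the transgene itself, cannot be told apart.

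Dmrt2a is a transcription factor with a DM domain, named after the *doublesex* and *mab-3* genes of the fly and the worm. In zebrafish it is expressed in the presomitic mesoderm and the somites and is known for its part in keeping left and right somites in step and in left-right patterning. The tissues sampled here hold cells in several states at once: tailbud progenitors, presomitic cells whose Notch-driven clock of *her* genes sets the rhythm of segmentation, new somites, the neural plate above them, and angioblasts and heart precursors in the lateral plate.

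The arrays measure 75212 probe sets, each as 1 log2 signal. Pairs of arrays of a group correlated at 0.988 to 0.992 across probe sets, and no array stood apart. Array medians were 3.47 to 3.49 for Region 1 and 3.29 to 3.32 for Region 2, a shift that the region term of the fit removes. It does not remove a small shift between genotypes within Region 1, where medians were 3.470 to 3.477 on transgenic arrays and 3.490 on each control array. In the control pieces 7 of 8 somite and muscle genes were higher in Region 1 than in Region 2, and 8 of 9 genes of the tailbud, the presomitic mesoderm and the LRO were lower (limma adjusted p under 0.05), with *actc1b* and *evx1* as the exceptions. A gene was called at an adjusted p under 0.05 over all probe sets, and it is given by the probe set with its highest mean signal. This left 20485 named genes.

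*dmrt2a*, the gene of the transgene, was higher in the transgenic pieces of both regions, but not equally. In Region 1 it read 8.73, 8.75 and 8.74 on the transgenic arrays, against 8.45, 8.36 and 8.35 on the control arrays. For Region 2 the signals were 8.75, 8.70 and 8.84 on the transgenic arrays and 7.36, 7.41 and 7.33 on the control arrays. The transgenic pieces of the 2 regions thus reached a similar signal above control levels that differed. Over both regions the log2 difference came to 0.87 (standard error 0.158, adjusted p = 0.0118 in limma), and an exact permutation of the labels within each region gave a two-sided p of 0.005, the smallest that its 400 arrangements allow. The effect was 0.35 in Region 1 and 1.40 in Region 2, and the difference between them was itself called (adjusted p = 0.000825), so *dmrt2a* is a called gene that is not among the shared ones described next. Endogenous and transgenic transcripts are not told apart by this probe set.

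Its paralogue *dmrt2b* fell in the pooled fit, by 0.49 (standard error 0.108, adjusted p = 0.0327), although its signal is near the low end of the scale. In Region 1 *dmrt2b* read 2.69, 2.91 and 2.77 on the transgenic arrays and 3.26, 3.47 and 2.95 on the control arrays. In Region 2 it read 3.02, 2.63 and 2.91 on the transgenic arrays and 3.29, 3.23 and 3.67 on the control arrays. No transgenic array overlapped the control arrays of its region, and Region 1 (adjusted p = 0.289) and Region 2 (0.263) taken alone did not pass. The pooled call of *dmrt2b* was lost without 8 of the 12 arrays taken singly, at an adjusted p of up to 0.0765. It held only without transgenic replicate 2 or control replicate 3 of Region 1, or transgenic replicate 1 or control replicate 2 of Region 2.

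**Figure D1:**
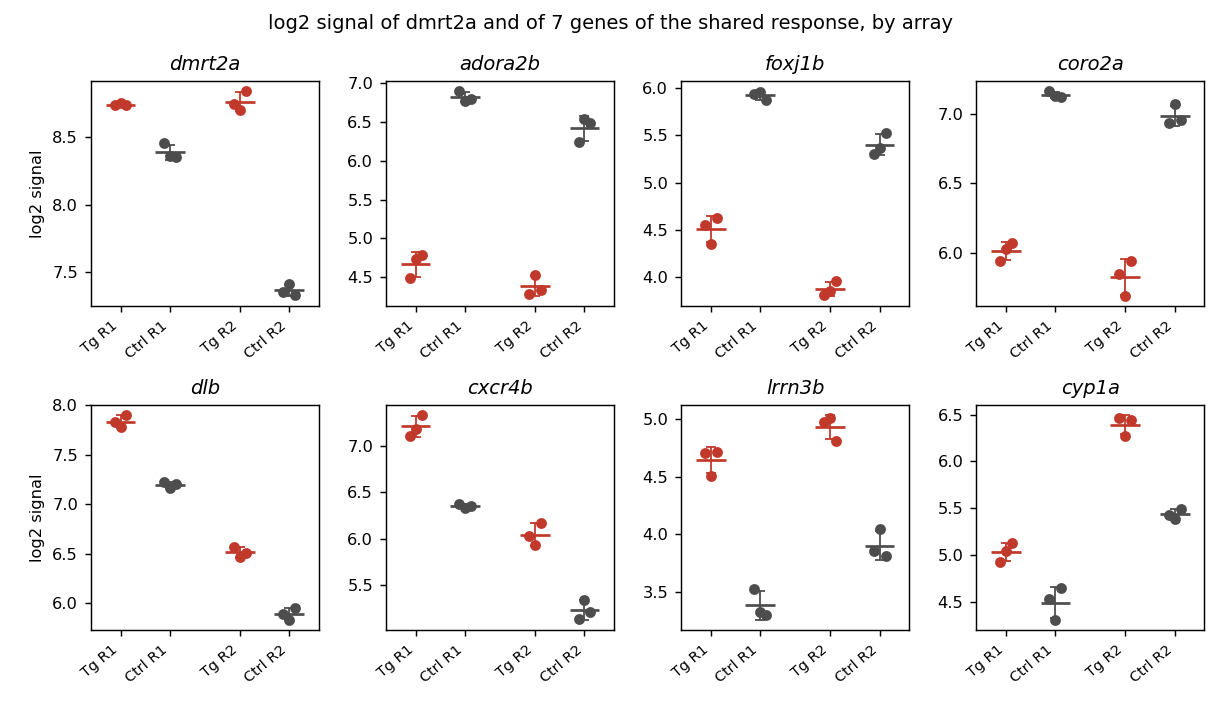
Log2 signal (vertical axes, each with its own range) of *dmrt2a* and of 7 genes of the shared response on each of the 12 arrays. Points are arrays, horizontal bars group means and error bars 1 SD (n = 3), with transgenic (Tg, red) left of control (Ctrl, grey) in Region 1 (R1) and Region 2 (R2). In all 8 panels no transgenic point overlaps the control points of its region. The thresholds of the shared class favour such separation, which 7.63% of all named genes showed in both regions in the same direction. Only *dmrt2a* has a called difference between the regions (steps of 0.35 in Region 1 and 1.40 in Region 2). The steps of *cyp1a* were also uneven (0.54 in Region 1 and 0.96 in Region 2), without a called difference.

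The pooled fit called 1977 of 75212 probe sets (2.63%), of which 796 were higher (1.06%) and 1181 lower (1.57%) in transgenic pieces. Among named genes it called 967 of 20485 (4.72%), with 383 higher (1.87%) and 584 lower (2.85%). Fits of 1 region at a time, 3 arrays against 3, called 381 probe sets in Region 1 (0.507%) and 352 in Region 2 (0.468%). The gain came with a smaller error: on the log2 scale the median standard error of a probe set was 0.0787 in the pooled fit, against 0.0991 for Region 1 and 0.103 for Region 2 alone. The difference between the regions was called for 144 probe sets (0.191%), 38 of them also called in the pooled fit.

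A called gene was counted as shared when both regional effects had the same sign, each had an unadjusted p under 0.05, and the difference between the regions was not called. This held for 1641 probe sets (2.18%) and for 780 named genes (3.81%), 305 higher and 475 lower. Of these, 216 genes were also called in at least 1 region alone (48 higher and 168 lower). The other 564 genes (2.75%, or 1268 probe sets, 1.69%), 257 higher and 307 lower, were called in neither region and came out only over both. Falls made up 77.8% of the first set and 54.4% of the second, so the changes that needed both regions were more evenly spread over rises and falls. They were also smaller. The median size of the change was 0.33 on the log2 scale (a fold of 1.26) in the second set, against 0.619 (a fold of 1.54) in the first, and 511 of the 564 lay under 0.5. The smallest, a change of 0.175, is a fold of 1.13. Since the classes were defined by these same values, the sizes describe them and test nothing. Transgenic and control arrays did not overlap in either region, in the same direction, for 766 of the 780 genes and for 552 of the 564. The background was 4.17% of all probe sets and 7.63% of named genes (3.48% higher and 4.15% lower). The regional thresholds that define the shared class favour such separation, so these counts too describe the class and test nothing. Leaving out each array in turn kept the pooled call in all 12 fits for 578 of the 780 genes (74.1%) and for 366 of the 564 (64.9%).

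**Figure D2:**
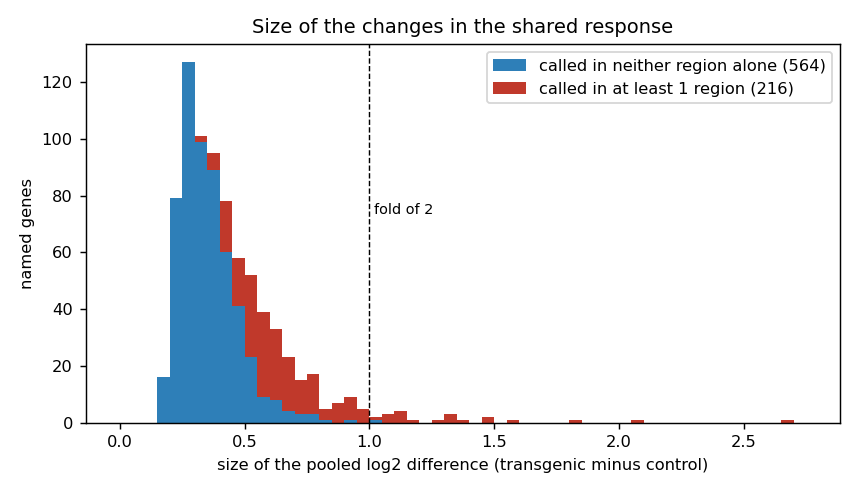
Number of named genes of the shared response (vertical axis) by the size of the pooled log2 difference, transgenic minus control (horizontal axis, bins of 0.05). Blue bars are the 564 genes called in neither region alone, with a median of 0.33, and the red bars stacked on them are the 216 genes called in at least 1 region, with a median of 0.619. The dashed line marks a fold of 2.

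The 2 regions were then read against each other, since the arrays of one took no part in the calls of the other. Of the 381 probe sets called in Region 1, 330 (86.6%) moved the same way in Region 2 and 247 (64.8%) did so with an unadjusted p under 0.05 there. Over all probe sets 54.6% had the same sign in both regions, and 7.39% also had such a p in Region 2. An opposite move with such a p was seen for 18 of the 381 (4.72%), against 3.38% of all probe sets. Of the 352 probe sets called in Region 2, 322 (91.5%) moved the same way in Region 1 and 268 (76.1%) did so with an unadjusted p under 0.05, against 8.43% of all probe sets. The falls called in Region 2 recurred in 230 of 301 cases (76.4%) and its rises in 38 of 51 (74.5%). Calls of Region 1 were less even: 178 of 259 falls (68.7%) and 69 of 122 rises (56.6%) recurred in Region 2. Several probe sets can stand for 1 gene, so these counts are not of independent genes. The 2 regions are not fully independent either, since the 2 pools of a replicate may share embryos. Both regions also compare the same transgenic stock with the same wildtype fish, so recurrence cannot tell the transgene from other stock differences. Across the named genes the regional effects had a Pearson correlation of 0.392, a description in which most points are genes that were not called.

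**Figure D3:**
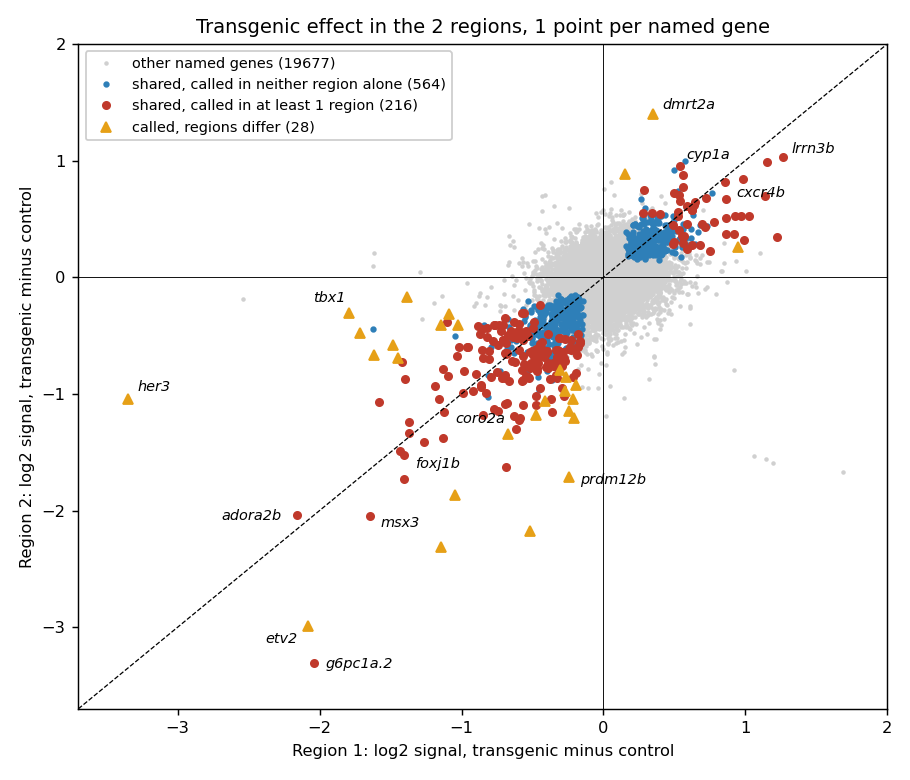
Log2 signal of transgenic minus control pieces in Region 1 (horizontal axis) and Region 2 (vertical axis), 1 point per named gene. Shared genes called in at least 1 region (216, red) and in neither alone (564, blue) have effects of the same sign in both regions. These effects need not be equal, as for *g6pc1a.2* (-2.04 in Region 1 and -3.30 in Region 2). The dashed line marks equal effects, and the 28 called genes whose regions differ (orange triangles, *dmrt2a* among them) lie off it. The largest shared changes are falls, at the lower left.

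Of the shared genes, *adora2b* and *foxj1b* had the smallest adjusted p-values, followed by *coro2a*, *stambpl1*, *msx3* and *adora2ab*, and all of them fell. *adora2b*, a receptor for extracellular adenosine, read 4.48, 4.74 and 4.78 in transgenic pieces of Region 1, against 6.90, 6.78 and 6.80 in control pieces. In Region 2 its signals were 4.29, 4.53 and 4.34 in transgenic pieces and 6.24, 6.54 and 6.49 in control pieces. The groups lay far apart in both regions, with a pooled difference of -2.10 (standard error 0.0748, adjusted p = 1.41e-07), or 4.28-fold. Its relative *adora2ab* read 7.05, 7.03 and 7.19 in transgenic pieces of Region 1 and 7.99, 7.93 and 7.95 in control pieces. In Region 2 *adora2ab* read 7.39, 7.35 and 7.40 in transgenic pieces and 8.35, 8.22 and 8.33 in control pieces, a pooled difference of -0.89 (adjusted p = 1.87e-06). In a dissected piece, fewer cells that express a gene and less RNA per cell cannot be told apart, here and for every gene below.

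*foxj1b*, a forkhead gene of the family that switches on motile cilia genes, read 4.55, 4.36 and 4.63 in transgenic pieces of Region 1, against 5.93, 5.96 and 5.87 in control pieces. Region 2 gave 3.81, 3.86 and 3.96 in transgenic pieces and 5.31, 5.37 and 5.53 in control pieces. The pooled difference was -1.47 (standard error 0.0616, adjusted p = 4.72e-07), and the second distinct probe set of the gene gave -1.71. *msx3*, a homeobox gene of the dorsal neural plate, read 3.41, 3.51 and 3.59 in transgenic pieces of Region 1 and 5.08, 5.21 and 5.16 in control pieces. Its signals in Region 2 were 4.31, 4.46 and 4.73 in transgenic pieces and 6.54, 6.53 and 6.57 in control pieces, and the pooled difference was -1.85 (adjusted p = 1.17e-06). Neither gene had a called difference between the regions (adjusted p = 0.83 for *foxj1b* and 0.392 for *msx3*).

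*g6pc1a.2*, which encodes a catalytic subunit of glucose-6-phosphatase, fell the most of the shared genes, with a difference of -2.67 (standard error 0.237, adjusted p = 0.000109). Its signals were 3.54, 2.63 and 3.71 in transgenic pieces of Region 1, against 5.26, 5.29 and 5.43 in control pieces. In Region 2 *g6pc1a.2* read 3.42, 3.27 and 3.43 in transgenic pieces and 6.54, 6.75 and 6.74 in control pieces. The dimmer of its 2 probe sets gave a difference of 0.05, so the fall rests on 1 probe set. *coro2a*, a coronin of the actin cytoskeleton, fell by 1.14 (standard error 0.0523, adjusted p = 8.74e-07), with 5.95, 6.03 and 6.07 in transgenic pieces of Region 1 and 7.16, 7.13 and 7.12 in control pieces. *stambpl1*, a deubiquitinating enzyme, fell by 1.35 (adjusted p = 8.74e-07), *slc23a3*, of the nucleobase and ascorbate transporter family, by 1.57 (adjusted p = 1.13e-05) and *cahz*, a carbonic anhydrase, by 1.46 (adjusted p = 3.97e-05). All 4 further probe sets of *slc23a3* were lower too, by 0.16 to 0.89, while the second probe set of *cahz* gave -0.15. *auts2b* (-1.32) and *nkx1.2la* (-1.16), a homeobox gene of the tailbud, complete the named genes among the 12 largest shared falls with *spns2*, described below, and with *si:dkey-23c22.6* (-1.34) and *LOC100000832* (-1.31), which have no descriptive name.

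The shared rises were smaller. *lrrn3b*, a neuronal leucine-rich repeat protein of the cell surface, led them with a pooled rise of 1.15 (standard error 0.0745, adjusted p = 1.45e-05). It read 4.71, 4.51 and 4.71 in transgenic pieces of Region 1, against 3.53, 3.32 and 3.30 in control pieces. In Region 2 *lrrn3b* read 4.98, 5.01 and 4.81 in transgenic pieces and 3.85, 4.04 and 3.81 in control pieces. No other shared named gene with a descriptive name rose by as much as 1 on the log2 scale.

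Next came surface proteins and transcription factors. *pcdh18a*, a protocadherin, rose by 0.92 (adjusted p = 0.000749), *cacna2d3*, an auxiliary subunit of voltage-gated calcium channels, by 0.91 (adjusted p = 0.00012), and *c3a.6*, a complement component, by 0.77 (adjusted p = 6.6e-05). Further probe sets gave smaller rises, of 0.47 for *pcdh18a* and of 0.32 and 0.35 for *cacna2d3*. The control means of *cacna2d3*, 2.82 in Region 1 and 2.89 in Region 2, are near the low end of the scale. *dlx5a*, a homeobox gene of the neural plate border, rose by 0.79 (standard error 0.117, adjusted p = 0.00357) and is the largest rise that neither region called alone. It read 4.95, 4.83 and 5.28 in transgenic pieces of Region 1 and 4.53, 4.48 and 4.33 in control pieces. In Region 2 *dlx5a* read 6.19, 6.22 and 6.38 in transgenic pieces and 5.04, 5.57 and 5.18 in control pieces. *twist3* rose by 0.78 (adjusted p = 0.0225), a call lost without any of 5 arrays (the 3 transgenic arrays and control replicate 2 of Region 1, and transgenic replicate 2 of Region 2), at an adjusted p of up to 0.0577.

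*cyp1a*, a cytochrome P450 that is the classic target of the aryl hydrocarbon receptor, rose in the pooled fit by 0.75 (standard error 0.0889, adjusted p = 0.000864). It read 4.93, 5.04 and 5.12 in transgenic pieces of Region 1, against 4.53, 4.31 and 4.64 in control pieces. In Region 2 its signals were 6.47, 6.27 and 6.44 in transgenic pieces and 5.43, 5.38 and 5.50 in control pieces. The groups were apart in both regions, where Region 1 alone had an adjusted p of 0.119, and the difference between the regions was not called (adjusted p = 0.339). It was the only one of 15 measured genes of the aryl hydrocarbon receptor and Cyp1 list that passed.

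The smaller changes that neither region called alone are the ones the joint fit adds. *foxc1b*, a forkhead gene of the paraxial mesoderm, read 5.77, 5.89 and 5.88 in transgenic pieces of Region 1, against 6.26, 6.39 and 6.25 in control pieces. In Region 2 it read 6.19, 6.19 and 6.46 in transgenic pieces and 6.71, 6.76 and 6.80 in control pieces. Its difference of -0.47 (standard error 0.0579) had a pooled adjusted p of 0.00107, where the regions alone gave 0.0723 and 0.133. The dimmer probe set of *foxc1b* gave a difference of 0.10. The paralogue *foxc1a* was not called, with a difference of -0.13 (adjusted p = 0.213).

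Several others of this kind are regulators of mesoderm and of neurons. *isl1a*, a LIM homeobox gene of heart precursors and of early neurons, fell by 0.59 (standard error 0.0692, adjusted p = 0.000725). Its signals were 5.05, 4.78 and 5.04 in transgenic pieces of Region 1, against 5.57, 5.56 and 5.70 in control pieces. In Region 2 *isl1a* read 4.31, 4.15 and 4.42 in transgenic pieces and 4.94, 4.80 and 4.75 in control pieces. *prdm1a*, a regulator of slow muscle and of the neural plate border, fell by 0.32 (standard error 0.0374, adjusted p = 0.000771), a small step with little scatter: 9.001, 9.078 and 9.027 in transgenic pieces of Region 1 against 9.34, 9.33 and 9.35 in control pieces, and 9.18, 9.20 and 9.21 in transgenic pieces of Region 2 against 9.53, 9.55 and 9.50 in control pieces. *meox1*, which marks the outer cells of the somite, rose by 0.31 (adjusted p = 0.00191), with 9.29, 9.28 and 9.30 in transgenic pieces of Region 1 and 9.01, 9.06 and 9.04 in control pieces. These changes of 1.24-fold to 1.51-fold were separated from the controls on every array.

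Paralogues that moved in opposite directions were found among the called genes (these pairs were picked after their values had been seen). *foxj1a* rose while *foxj1b* fell. *foxj1a* read 7.02, 6.82 and 6.80 in transgenic pieces of Region 1 and 6.15, 6.37 and 6.25 in control pieces, with 6.50, 6.26 and 6.13 in transgenic pieces of Region 2 and 5.768, 5.880 and 6.003 in control pieces. The rise of *foxj1a* was 0.52 (standard error 0.0799, adjusted p = 0.00457), and neither region alone passed. *osr2* likewise rose by 0.51 (standard error 0.0572, adjusted p = 0.000603), with 5.07, 5.29 and 5.33 in transgenic pieces of Region 1 against 4.76, 4.72 and 4.73 in control pieces. Its paralogue *osr1*, a gene of the intermediate mesoderm, fell by 1.73 (adjusted p = 0.000455), more in Region 2 (-2.31) than in Region 1 (-1.15, adjusted p of the difference 0.028). *cxcr4b*, a receptor for the chemokine Cxcl12, rose and *cxcr4a*, a second such receptor, fell. *cxcr4b* read 7.11, 7.19 and 7.34 in transgenic pieces of Region 1 against 6.38, 6.33 and 6.35 in control pieces, and 6.03, 5.93 and 6.17 in transgenic pieces of Region 2 against 5.13, 5.34 and 5.21 in control pieces, a pooled rise of 0.84 (adjusted p = 2.3e-05). *cxcr4a* read 4.18, 3.96 and 4.41 in transgenic pieces of Region 1 against 4.77, 4.82 and 4.69 in control pieces, and 5.66, 5.33 and 5.65 in transgenic pieces of Region 2 against 6.33, 6.34 and 6.35 in control pieces, a pooled difference of -0.68 (adjusted p = 0.00122). Other pairs moved together: *pax6a* (-0.91) and *pax6b* (-0.69), homeobox genes of the neural tube, both fell, and so did *hs3st3b1b* (-1.14) and *hs3st3b1a* (-1.07). One of the further probe sets of *pax6a* gave a difference near 0.

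**Figure D4:**
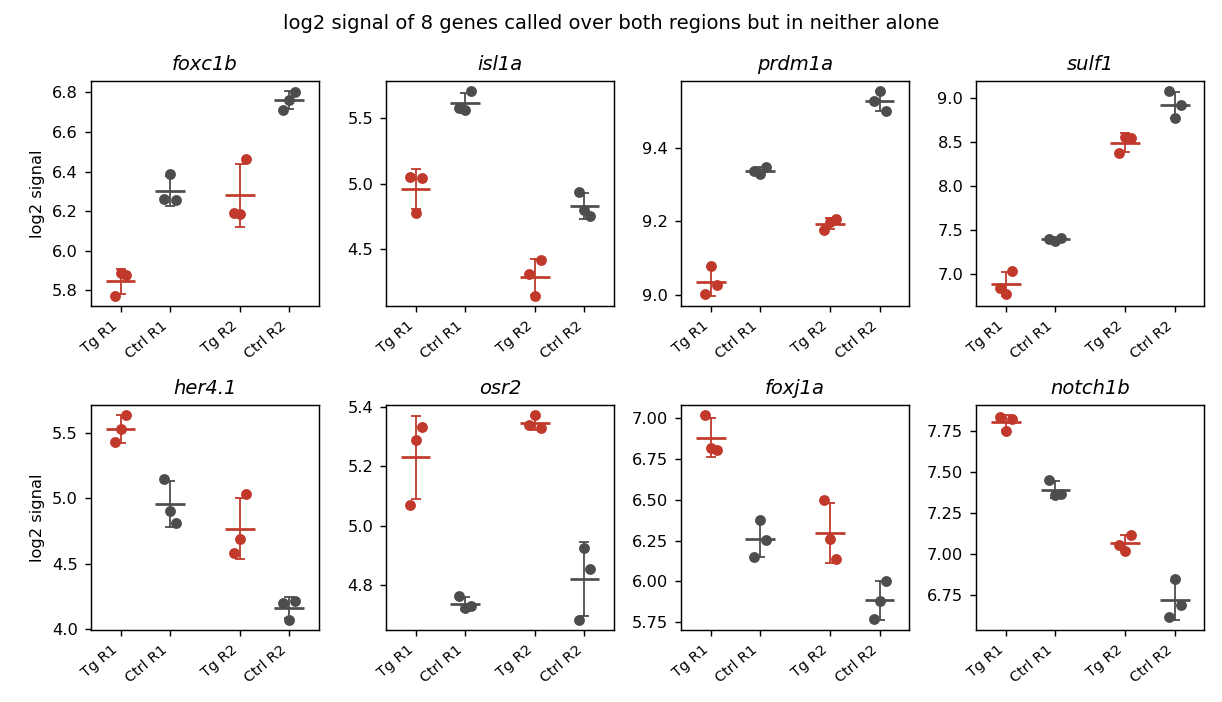
Log2 signal (vertical axes, each with its own range) of 8 genes called over both regions but in neither region alone, on each of the 12 arrays. Points are arrays, horizontal bars group means and error bars 1 SD (n = 3), with transgenic (Tg, red) left of control (Ctrl, grey) in Region 1 (R1) and Region 2 (R2). *foxc1b*, *isl1a*, *prdm1a* and *sulf1* are lower and *her4.1*, *osr2*, *foxj1a* and *notch1b* higher in transgenic pieces of both regions, by 0.32 to 0.59.

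Gene lists of tissues and pathways were set against the 1.87% of named genes that rose and the 2.85% that fell. Over 40 lists, 1089 genes were measured and 195 were called, 65 higher and 130 lower. These and the list counts below are of genes called in the pooled fit, which need not be shared genes. The median pooled difference of all named genes was 0.0058. One of the lists holds the genes that the study had picked from these arrays for qPCR, of which 23 of 32 fell and 4 rose, and some of these stand in other lists too, so their shares are not independent of the data.

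The Notch and segmentation clock list had the highest share of called genes (41.2%) apart from the qPCR genes: 9 of 34 rose and 5 fell (median 0.073), and between 8 and 9 rises were called without any 1 array. Among the ligands, *dlb* read 7.83, 7.77 and 7.90 in transgenic pieces of Region 1, against 7.22, 7.16 and 7.20 in control pieces. In Region 2 *dlb* read 6.57, 6.47 and 6.50 in transgenic pieces and 5.90, 5.83 and 5.95 in control pieces. The step was nearly the same in both regions, a pooled rise of 0.63 (standard error 0.0429, adjusted p = 1.92e-05). *dla* rose by 0.54 (adjusted p = 0.000366), and the ligands *jag1a* by 0.48 (adjusted p = 0.0057) and *jag2b* by 0.35 (adjusted p = 0.016). Of the receptors, *notch1b* rose by 0.38 (adjusted p = 0.00165) and *notch3* fell by 0.23 (adjusted p = 0.0185).

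Other members of the list moved in both directions. *nrarpb*, a target that feeds back on Notch, rose by 0.60 (standard error 0.0544, adjusted p = 0.000124), with 8.60, 8.57 and 8.49 in transgenic pieces of Region 1 against 7.83, 7.95 and 8.01 in control pieces. *her4.1*, a Notch target of the neural plate, rose by 0.59 (standard error 0.0842, adjusted p = 0.00262) and was called in neither region alone. It read 5.43, 5.53 and 5.64 in transgenic pieces of Region 1 and 5.15, 4.90 and 4.81 in control pieces. *her2* rose by 0.28 (adjusted p = 0.0101). *her11* fell by 0.37 (adjusted p = 0.00933) and *her8a* by 0.30 (adjusted p = 0.0123), and *her3*, which Notch signalling is known to repress, fell by 2.19 with unequal effects in the regions. The call of *her1* (0.29, adjusted p = 0.0401) was lost without 9 of the 12 arrays taken singly, at an adjusted p of up to 0.0943. *her9* (-0.24, adjusted p = 0.0467), which is known to be expressed independently of Notch, lost its call without 11 of the 12, at an adjusted p of up to 0.101.

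In the presomitic mesoderm and tailbud list 8 of 31 rose and 2 fell over both regions (median 0.11), and between 5 and 8 rises were called without any 1 array. The fits of 1 region called different members in opposite directions. Region 1 alone called 4, all of them rises (*tbx16*, *tbx16l*, *sp5a* and *msgn1*), and Region 2 alone called 4, all of them falls (*nkx1.2la*, *eve1*, *tbxtb* and *vox*). *sp5a*, a target of Wnt signalling, rose by 0.47 (standard error 0.0459, adjusted p = 0.000237), *tbx16l* by 0.49 (adjusted p = 0.0196) and *cdx1a* by 0.43 (adjusted p = 0.0192). *tbx16*, which drives progenitors towards mesoderm, rose by 0.60 (adjusted p = 0.0137), more in Region 1, with means of 6.86 in transgenic and 5.91 in control pieces, than in Region 2, with 10.7 and 10.5 (effects of 0.95 and 0.26, adjusted p of the difference 0.0273). *wnt5b*, a ligand of non-canonical Wnt signalling, rose by 0.34 (adjusted p = 0.0125). In the Wnt list as a whole 5 of 51 rose and 3 fell (median 0.047), with *notum1a*, a secreted feedback inhibitor, 0.41 higher (adjusted p = 0.00191), *lef1*, a nuclear effector, 0.32 higher (adjusted p = 0.0079) and *tcf7l1a*, a repressor of the pathway, lower (-0.34, adjusted p = 0.00647).

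In the muscle list 4 of 30 fell and none rose (1 at an unadjusted p under 0.05), with *pax3a* lower by 0.51 (standard error 0.04, adjusted p = 4.1e-05), at -0.53 in Region 1 and -0.50 in Region 2. *myod1*, a master gene of muscle, fell by 0.38 (adjusted p = 0.0214), a call lost without transgenic replicate 3 or any control array of Region 2 (adjusted p of up to 0.0554). In the somite and dermomyotome list 2 of 28 fell and 1 rose.

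Of 37 measured genes of neural progenitors and the spinal cord 6 rose and 8 fell (median -0.13). The rises were *nkx6.2* (0.72, adjusted p = 0.000351), *olig3* (0.52, adjusted p = 0.00259), *sox3* (0.52, adjusted p = 0.00515), *elavl3* (0.46, adjusted p = 0.00128), *neurod4* (0.46, adjusted p = 0.014) and *sox11a* (0.27, adjusted p = 0.0146), a set with both progenitor factors and early neuron genes. One of the 2 further probe sets of *olig3* gave -0.13. The falls included *msx3*, *dbx1a* (-0.91, adjusted p = 0.000917), *irx3a* (-0.56, adjusted p = 9.64e-05), *irx5a* (-0.43, adjusted p = 0.000287), *nkx6.1* (-0.36, adjusted p = 0.00986) and *sox2* (-0.31, adjusted p = 0.00627), transcription factors that pattern the neural tube. In the hindbrain list 5 of 24 fell and none rose (1 at an unadjusted p under 0.05), among them *irx7* (-0.74, adjusted p = 0.00918) and *hoxb1a* (-0.66, adjusted p = 0.00125). Both were near the low end of the scale in Region 2. There *irx7* had means of 3.13 in transgenic and 3.52 in control pieces, and *hoxb1a* 2.55 and 3.09. In Region 1 the means were 6.55 and 7.65 for *irx7*, and 7.5 and 8.2 for *hoxb1a*. In the neural plate border and crest list 7 of 29 fell, among them *tfap2c* (-0.85, adjusted p = 3.27e-05) and *msx1b* (-0.40, adjusted p = 0.00152), and only *dlx5a* rose.

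*tal1*, a regulator of blood and endothelial precursors, read 5.50, 5.68 and 5.68 in transgenic pieces of Region 1, against 6.14, 6.32 and 6.26 in control pieces. In Region 2 *tal1* read 6.22, 6.35 and 6.47 in transgenic pieces and 7.66, 7.64 and 7.64 in control pieces, a pooled difference of -0.96 (standard error 0.114, adjusted p = 0.000864). The effect was uneven, -0.62 in Region 1 and -1.30 in Region 2, with a difference just short of a call (limma adjusted p = 0.0556). *etv2*, an upstream regulator of endothelial fate, fell by 2.54 (adjusted p = 8.12e-06), with -2.08 in Region 1, -2.99 in Region 2 and a called difference between them (adjusted p = 0.0462). *gata2a* fell by 0.30 (adjusted p = 0.00222) and was called in neither region alone. Of the 30 measured endothelial genes 3 fell and 2 rose (median -0.0035). The rises were *sox18* (0.27, adjusted p = 0.0188) and *kdrl*, a Vegf receptor (0.42, adjusted p = 0.0273), whose call was lost without 8 of the 12 arrays taken singly, at an adjusted p of up to 0.0667. In the heart field and pharynx list 5 of 21 fell and none rose (3 at an unadjusted p under 0.05), with *hand2* lower by 0.65 (adjusted p = 0.000287), *tbx2b* by 0.36 (adjusted p = 0.00246) and *gata5* by 0.35 (adjusted p = 0.0177) beside *isl1a*. For *gata5* the effect was -0.16 in Region 1 and -0.55 in Region 2, and the second probe set of the gene gave -0.08.

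The list of guidance molecules and cadherins had 20 called of 59, 8 higher and 12 lower (median -0.059), and 13 of them were called in neither region alone. *cdh6*, a cadherin, fell by 0.78 (standard error 0.0679, adjusted p = 9.03e-05), *epha7* by 0.78 (adjusted p = 0.00347), *ephb3a* by 0.64 (adjusted p = 0.000274) and *pcdh19* by 0.58 (adjusted p = 3.27e-05). *slit1a*, a repulsive cue, rose by 0.46 (adjusted p = 0.00142) while *slit2* fell by 0.31 (adjusted p = 0.00259). The receptors *epha2a* (0.40, adjusted p = 0.00117), *ephb4b* (0.30, adjusted p = 0.00862) and *ephb4a* (0.28, adjusted p = 0.01) rose. In the list of extracellular matrix genes and integrins 5 of 35 fell and 1 rose (median -0.01). All 6 were called in neither region alone, and only 2 of the falls were called without each array in turn.

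Heparan sulfate proteoglycans, which hold growth factors at the cell surface, were called in 1 direction. Of 38 measured genes of these proteins and their enzymes 6 fell and none rose (2 at an unadjusted p under 0.05 and 1 called by the ordinary analysis of variance). *hs3st3b1b*, a sulfotransferase, read 7.07, 7.13 and 7.28 in transgenic pieces of Region 1, against 8.55, 8.57 and 8.55 in control pieces. In Region 2 it read 6.06, 5.88 and 5.89 in transgenic pieces and 6.81, 6.88 and 6.76 in control pieces, a pooled difference of -1.14 (standard error 0.0919, adjusted p = 5.57e-05). *gpc4*, a glypican core protein, fell by 0.96 (standard error 0.066, adjusted p = 1.97e-05), with 7.50 on each of the 3 transgenic arrays of Region 1 against 8.59, 8.67 and 8.63 on the control arrays. *sulf1*, which removes sulfate groups from the chains, fell by 0.47 (standard error 0.0657, adjusted p = 0.00243), was called in neither region alone, and all 3 of its probe sets were lower. *sdc4*, a syndecan, fell by 0.28 (adjusted p = 0.0045).

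In the Bmp list 9 of 42 fell and 1 rose (median -0.036), and between 6 and 8 falls were called without any 1 array. Only 5 of the called genes of this list were shared. The ligand genes *bmp7a* (-0.53, adjusted p = 0.000233), *bmp6* (-0.44, adjusted p = 0.0102) and *gdf6b* (-0.41, adjusted p = 0.00236) fell, as did the receptor gene *bmpr1ab* (-0.29, adjusted p = 0.00615) and the inhibitor *smad6a* (-0.26, adjusted p = 0.0185). A second probe set of *bmp7a* gave a difference near 0. The ligand gene *admp* rose by 0.45 (adjusted p = 0.019). In the Fgf list 5 of 31 fell and 2 rose (median -0.0026): the receptor genes *fgfr1b* (-0.75, adjusted p = 1.47e-05) and *fgfr4* (-0.30, adjusted p = 0.00462) and the feedback gene *dusp6* (-0.59, adjusted p = 0.000974) fell, and *fgfrl1a*, a receptor-like gene without a kinase domain, rose by 0.36 (adjusted p = 0.00117). The other rise was *etv5a*, a call that held without each array in turn. The fall of *spry2* lost its call without each of the 12 arrays taken singly, at a limma adjusted p of up to 0.106. In the list of chemokines, Pdgf and sphingosine-1-phosphate 6 of 35 fell and 2 rose (median -0.027). Members of sphingosine-1-phosphate signalling among the falls, singled out after their values were seen, were *spns2*, its exporter, lower by 1.26 (standard error 0.0756, adjusted p = 8.33e-06), *s1pr2*, its receptor, by 0.59 (adjusted p = 0.000629), and *sphk2*, a kinase that makes it, by 0.33 (adjusted p = 0.00993). *spns2* read 6.29, 6.17 and 6.08 in transgenic pieces of Region 1 against 7.26, 7.24 and 7.44 in control pieces, and 6.24, 6.14 and 6.47 in transgenic pieces of Region 2 against 7.61, 7.74 and 7.64 in control pieces.

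**Figure D5:**
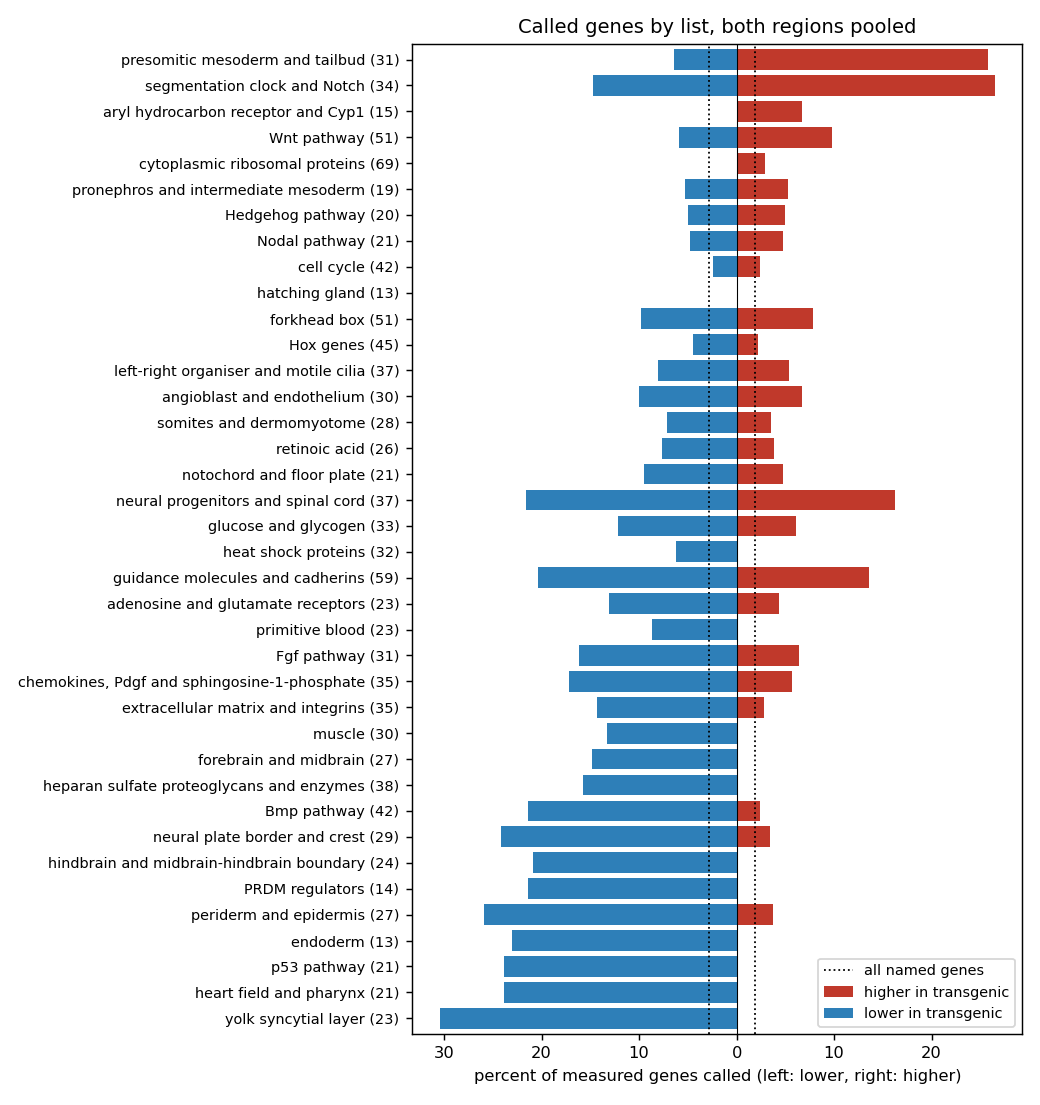
Percent of the measured genes of each list (number in parentheses) that were called higher (red, to the right) or lower (blue, to the left) in transgenic pieces over both regions. Dotted lines give the share of all named genes called higher (1.87%) and lower (2.85%). The DMRT and qPCR lists are left out. The presomitic mesoderm and Notch lists extend farthest to the right and the yolk syncytial layer list farthest to the left.

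Several lists of markers of cells outside the target tissues held called genes, while the hatching gland list held none. In the list of the yolk syncytial layer, the cell layer at the yolk surface, 7 of 23 fell and none rose (2 at an unadjusted p under 0.05), led by *mxtx1* (-0.89, adjusted p = 9.03e-05) and *slc26a1* (-0.79, adjusted p = 3.85e-05). Averaged over the 23 genes, the log2 signal in Region 1 was 7.17 to 7.19 on transgenic arrays and 7.26 to 7.28 on control arrays. In Region 2 it was 7.01 to 7.06 on transgenic arrays and 7.29 to 7.33 on control arrays, so the genotypes did not overlap in either region. The periderm and epidermis list had 7 of 27 lower and 1 higher, but only 2 to 5 falls were called without any 1 array. Its mean signal in Region 1 was 7.53 to 7.55 on transgenic arrays and 7.59 to 7.62 on control arrays, and in Region 2 it was 7.68 to 7.71 on transgenic arrays and 7.76 to 7.80 on control arrays. The forebrain and midbrain list had 4 of 27 lower, with a mean signal in Region 1 of 3.89 to 3.94 on transgenic arrays and 3.94 to 3.98 on control arrays, and in Region 2 of 3.43 to 3.47 on transgenic arrays and 3.69 to 3.75 on control arrays. The primitive blood list had 2 of 23 lower. Its genotypes overlapped in Region 1 (4.90 to 4.97 on transgenic and 4.93 to 4.96 on control arrays) but not in Region 2 (4.87 to 4.91 on transgenic and 5.02 to 5.08 on control arrays). Hatching gland genes were at 4.53 to 4.54 on transgenic and 4.39 to 4.42 on control arrays of Region 1, and at 4.22 to 4.28 on transgenic and 4.43 to 4.47 on control arrays of Region 2. None of these 13 genes was called in the pooled limma fit (an unadjusted p under 0.05 was seen for 1 higher and 1 lower gene, and the ordinary analysis of variance called 1 higher). The regions alone called 1 of them in opposite directions, *ctslb*, a cathepsin, which was higher in Region 1 (1.06, adjusted p = 0.0296) but lower in Region 2 (-1.53, adjusted p = 0.0438), with a called difference between them (adjusted p = 0.00257). The part of these cells in the results above was not tested.

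Of 32 measured heat shock protein genes 2 fell, led by *hspa8b* (-0.59, adjusted p = 0.00111), and none rose (1 at an unadjusted p under 0.05), where the ordinary analysis of variance called 6 lower, in embryos that were all heat-shocked. In the p53 list 5 of 21 fell, *mdm2* by 0.32 (adjusted p = 0.00393), and none rose (3 at an unadjusted p under 0.05 and 1 by the ordinary analysis of variance), but between 2 and 4 falls were called without any 1 array. Only 2 of the 5 were shared. In the cell cycle list 1 of 42 rose and 1 fell, and 2 of 69 cytoplasmic ribosomal protein genes rose, shares near those of all named genes. At an unadjusted limma p under 0.05, however, 10 of the 42 were higher and 9 lower, against 3875 of 20485 named genes in either direction. The ordinary analysis of variance called 5 of the 42 higher and 5 lower.

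The calls rest on treating the 12 arrays as independent. The methods describe a pool from each region per condition and replicate, so that the 2 pools of a replicate may share embryos. Averaging Region 1 and Region 2 by genotype and replicate number, 3 values against 3, called 976 probe sets, of which 853 were among the 1977.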

How the data were processed

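The platform was the Affymetrix Zebrafish Gene 1.1 ST array, with 1 RNA pool per array. The deposited values, used as given, are log2 signals from Expression Console, run by the authors. How this program summarized and normalized the probes is not stated in the methods or labels, and scanner files were not used here. Differences are transgenic minus control on that scale, and low signals understate folds. R 4.3.3 with limma 3.58.1 (lmFit and eBayes) was used: log2 signal on region and genotype over 12 arrays, each region alone, and 4 group means for the difference between regions. P-values are two-sided and Benjamini-Hochberg adjusted over 75212 probe sets. The methods name a one-way ANOVA by region, which has no pooled form, so limma with region took its place, and a two-factor analysis of variance was an alternative. The scripts were tested on simulated data.

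Gene names came from the platform annotation, with older symbols replaced from the RefSeq assembly GRCz12tu: 29528 had 1 symbol (27940 updated through the gene identifier, 1580 matched as symbol or synonym, 8 kept), 1845 had several and 43839 had none. The study's symbols were kept for *etv2* and *coro2a*. Probe sets with several or no symbols were tested but not named.

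Genes named are those of the study's qPCR, the 12 largest shared rises and falls, the 15 largest of those called in neither region alone, up to 4 called genes per list with the smallest adjusted p, and the 5 called genes with the smallest p for a difference between regions. Not all are named, and other list members were chosen after their values were seen. The members, lists and rules were chosen with earlier results of these data known. The number of arrays limits the precision. Alternatives changed the normalization, the filters, the spread estimate, the fold minimum, the replicate block and the arrays used. Arrays were taken as unpaired.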

Additional observations from a re-analysis of the deposited data

Results flagged for a closer look

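For 28 called genes the pooled effect was an average of regional effects that differed, by limma's test of the difference itself, and 18 of them are given here. The values below are Region 2 effect minus Region 1 effect on the log2 scale. With the smallest p came *her3* (2.31, adjusted p = 4.8e-05), which fell by 3.35 in Region 1 and 1.04 in Region 2, and *grin2da* (-1.66, adjusted p = 0.000155), with -0.52 in Region 1 and -2.18 in Region 2. *tbx1* (1.49, adjusted p = 2e-04), *prdm12b* (-1.46, adjusted p = 0.000668) and *dmrt2a* itself (1.04, adjusted p = 0.000825) followed. The fall was larger in Region 1 for *cxcl12b* (1.21), *cyp26c1* (1.24), *foxb1a* (0.903), *foxh1* (0.952), *pdgfra* (0.775), *prdm14* (0.762) and *tll1* (0.617). For *cxcl12b* no fall was called in Region 2 (-0.17, limma adjusted p = 0.604), where its transgenic and control arrays overlapped. It was larger in Region 2 for *osr1* (-1.16), *etv2* (-0.915), *pxdc1b* (-0.821), *sfrp1a* (-0.673) and *otx2b* (-0.647). *tbx16* rose more in Region 1 (-0.69).

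The pooled calls of 3 of these depended on single arrays: *tbx1* lost its call without any array of Region 1 (adjusted p of up to 0.0673), *prdm12b* without any array of Region 2 or without control replicate 2 of Region 1 (up to 0.0897), and *cxcl12b* without 9 of the 12 arrays, those of Region 1 among them (up to 0.109). The second probe set of *her3* gave a pooled difference of -0.06.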

How the results depend on the processing

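Array weights, 4 group means, a trended and robust spread, quantile normalization, centring on array medians, the ordinary analysis of variance, a signal filter and leaving out probe sets of identical values or, chosen after seeing the data, a run of unnamed probe sets kept each of the counts of pooled, shared and neither-region calls within 1.5 times, where they were run. The members of the neither-region class changed more than its count. Of its 1268 probe sets 1233 stayed with 4 group means, 1195 with array weights and 1165 with quantile normalization. Fewer stayed with the ordinary analysis of variance (880), the trended and robust spread (828), without the unnamed run (823) and with the signal filter (610). The last 2 also left probe sets out of the test. Without 1 array at a time the pooled count lay between 1426 and 1612, the shared count between 1223 and 1392, the count called in neither region between 977 and 1153, the count of called regional differences between 41 and 71 (144 with all arrays) and the *dmrt2a* difference between 0.80 and 0.95. The number of arrays thus limits the test of a regional difference, which called 423 with a trended and robust spread. The replicate number as a block called 1479 pooled probe sets, 1208 shared and 1208 in neither region, as a random block 2102, 1690 and 1317, and within each region 743, 727 and 727. The random block used an estimated correlation of -0.0189 between the regions of a replicate. A negative value narrows the error of the pooled effect, so its counts do not allow for shared embryos. Except for the random block, the block also entered the fits of 1 region, which then called no shared probe set. The shared and neither-region counts are therefore the same there. Of the 1208 in neither region, 792 were among the 1268 of the main fit. With the block within each region *dmrt2a* stayed at 0.87 with an adjusted p of 0.0986. Averaging the regions called 976, 793 and 426. Taking the larger of both regional limma p-values left 9, 6 and 0 calls. Under it *dmrt2a*, at 0.87, had an adjusted p of 0.397. A fold of at least 1.5 left 382, 340 and 113, and a fold of at least 2 left 73, 57 and 16 and dropped *dmrt2a* (0.87). Region 1 alone called 381 and Region 2 alone 352, with *dmrt2a* at 0.35 in Region 1 (adjusted p = 0.0991). Testing only probe sets with 1 symbol called 631 in neither region, 46.0% of them lower against 55.3%. The share of falls in neither region was 50.1% with quantile normalization and 50.5% with centring on array medians. Among pooled calls it was 55.5% with either, against 59.7% in the main fit. One gene reversed: *ctslb*, at -0.24 and not called in the pooled fit, was called at 1.06 in Region 1 and at -1.53 in Region 2. Of 162 genes picked by the rule and called, array weights lost 0, quantile normalization 4, centring 6, the ordinary analysis of variance 14, the replicate block 21, averaging 45, the block within regions 56 and the larger regional p 155. Arrays of a genotype with the same number in both regions had deviations that correlated at 0.017 to 0.0787, all positive, against -0.0765 to 0.0281 for different numbers, and 8 of 12 arrays correlated best with their own number, a hint from the data that the labels do not give. Causes were not tested.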
